A study of Mus musculus with 16 samples.

Results

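Ptger4 encodes EP4, a receptor for prostaglandin E2. It was followed here in the motor cortex of mice that did or did not regain movement after a stroke. It is 1 of the 661 different genes that the study's tables list, 263 for ipsilesional cortex (the side of the lesion) and 417 for contralesional cortex (the opposite side), and 1 of the 19 genes that both tables hold. It was selected on its measured log2 levels in these libraries, chosen by the opposite signs of the difference between recovered and non-recovered mice in the 2 hemispheres. The differences between the groups that follow are therefore a description of a gene picked for them and carry no test.

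The study sequenced poly(A) RNA of the primary motor cortex. The 8 animals were C57Bl6 mice, all of which had a stroke and were scored on a horizontal rotating beam. The recovered group held 3 animals that regained function spontaneously (6, 23 and 28) and the non-recovered group 5 (17, 19, 20, 21 and 29), with both hemispheres sampled, which gave 16 libraries. No animal without a stroke is among the samples, so recovered mice are compared with non-recovered mice only. The sources used here do not give the age and sex of the mice, the way the stroke was made or the time of sampling. For animals 6 and 23 the contralesional titles and the description codes are at odds over which library is whose. Animals are numbered here by the titles, and the conflict leaves the groups as they are, since both are recovered. The ipsilesional library of animal 6 and the contralesional library of animal 23 carry the only code with a different prefix. The first of these stood apart in Gpnmb, C3 and Itgam, genes of microglia and macrophages, as described with its values below.

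Prostaglandin E2 is made from arachidonic acid by the cyclooxygenases and the prostaglandin E synthases, and acts on the receptors EP1 to EP4. EP4, like EP2, couples to the stimulatory G protein and raises cAMP, which activates protein kinase A and the transcription factor CREB; EP3 mostly lowers cAMP. In brain, EP4 is known from neurons, endothelial cells and microglia, and in mouse studies of stroke and inflammation it has been studied as a receptor that restrains microglial activation.

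The gene (ENSMUSG00000039942) lies on the minus strand of mm10 chromosome 15, from 5206661 to 5244187, with 3 annotated transcripts of which 2 code for protein. The coding transcripts run from 5233399 to 5244187 and differ in their first exon, and a read count per gene does not separate them. The third, noncoding transcript reaches to 5206661, where its exons share 82 bases with exons of Ttc33 and 1015 bases with the processed pseudogene Gm15937, both on the plus strand. The libraries were stranded, but the sources used here do not say whether strand was used in counting, so reads in that stretch cannot be assigned with certainty. The promoter shown is that of the annotated start at 5244187, and where the measured RNA begins was not determined. It spans chr15:5244138-5244437 on the minus strand (GRCm38.p6, sequence from RefSeq), from 250 bases before the annotated start to 50 after it. Capitals mark CCAAT on the gene's strand and GGGCGG, the GC box, which here reads CCGCCC because all its matches are on the other strand.

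Ptger4 promoter: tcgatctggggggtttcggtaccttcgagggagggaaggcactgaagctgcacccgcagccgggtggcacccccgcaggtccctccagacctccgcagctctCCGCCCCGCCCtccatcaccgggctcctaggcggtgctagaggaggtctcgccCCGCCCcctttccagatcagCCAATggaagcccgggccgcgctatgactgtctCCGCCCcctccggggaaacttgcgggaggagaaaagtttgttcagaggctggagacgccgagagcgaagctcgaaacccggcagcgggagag

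This window was 67.0% G and C. CCAAT occurred 1 time, 75 bases before the start, and GGGCGG 4 times, with its first 2 matches sharing 1 base. Searched on both strands, CCAAT was in 37.4% and GGGCGG in 35.7% of 32851 mouse promoters of the same length. The cAMP response element TGACGTCA, held by 1.79% of them, and its core TGACG, held by 20.8%, were not among the letters of this window. These matches describe the sequence and were not measured as binding.

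In ipsilesional cortex Ptger4 was higher in recovered mice. Its level was 1.50, 0.59 and 0.98 log2 CPM (log2 of counts per 1000000 reads, as deposited) in recovered animals 6, 23 and 28. In non-recovered animals 17, 19, 20, 21 and 29 it was -0.12, 0.63, 0.29, 0.60 and 0.80. Animals 6 and 28 lay above all non-recovered libraries, while animal 23 lay below 3 of them, so the groups overlapped. The mean was 1.02 ± 0.46 log2 CPM in recovered (SD, n = 3) and 0.44 ± 0.36 in non-recovered mice (SD, n = 5), a log2 difference of 0.58 with a standard error of 0.25 from the fit over the whole table. On the linear scale this was 2.01 ± 0.67 CPM in recovered against 1.30 ± 0.32 CPM in non-recovered mice.

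In contralesional cortex Ptger4 was lower in recovered mice. Its level was 0.39, -0.28 and -0.31 log2 CPM in recovered animals 6, 23 and 28. In non-recovered animals 17, 19, 20, 21 and 29 it was 0.49, 0.75, 0.56, 0.63 and 0.36. Animals 23 and 28 lay below every non-recovered library, and animal 6 lay between animals 29 and 17, so here too the groups overlapped. The mean was -0.07 ± 0.39 log2 CPM in recovered (SD, n = 3) and 0.56 ± 0.14 in non-recovered mice (SD, n = 5), a log2 difference of -0.63 with a standard error of 0.16. In CPM the means were 0.90 ± 0.29 in recovered and 1.40 ± 0.15 in non-recovered mice.

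These levels rest on few reads, which the deposited values allow to be recovered. Ipsilesional libraries held 65, 34 and 42 Ptger4 reads in recovered animals 6, 23 and 28, and 22, 28, 26, 35 and 43 in non-recovered animals 17, 19, 20, 21 and 29. Contralesional libraries held 27, 19 and 13 reads in the recovered and 37, 40, 37, 30 and 33 in the non-recovered animals, in the same order. Library totals were 22286800 to 24021427 reads in recovered and 19116419 to 26310885 in non-recovered ipsilesional libraries, and 17972791 to 25590335 in recovered against 20520350 to 27895465 in non-recovered contralesional ones. An exact 95% Poisson interval for a single library, which covers counting error only, ran from 2.11 to 3.49 CPM for recovered animal 6 and from 0.52 to 1.27 CPM for non-recovered animal 17, the highest and lowest ipsilesional libraries. The lowest and highest contralesional libraries had intervals of 0.39 to 1.24 CPM for recovered animal 28 and 1.14 to 2.17 CPM for non-recovered animal 19.

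**Figure D1:**
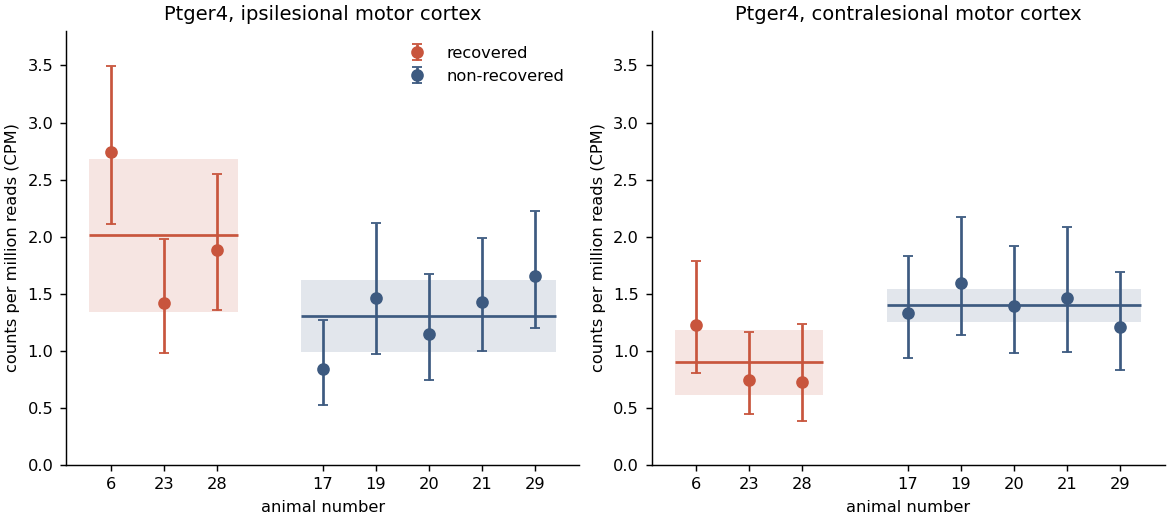
Ptger4 in counts per 1000000 reads, CPM (vertical axis, linear) in each library, by animal number, with recovered animals at the left of each panel and non-recovered ones at the right. Points are libraries with exact 95% Poisson intervals, lines are group means and bands are 1 SD; recovered animals averaged 2.01 CPM against 1.30 in ipsilesional cortex and 0.90 against 1.40 in contralesional cortex, with overlapping groups in both.

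Libraries of one group scattered differently in the 2 hemispheres. In contralesional cortex the variance of Ptger4 reads within groups was 0.93 times what counting alone gives, so replicates there varied about as much as the read numbers would by themselves; the median of all 417 listed genes was 2.17 times. In ipsilesional cortex it was 3.11 times, against a median of 4.55 over the 263 listed genes. Per kilobase of annotated exons (6648 bases for Ptger4, the noncoding transcript included), Ptger4 stood among the lowest listed genes, with 0.24 CPM per kilobase against a median of 5.13 in the ipsilesional table and 0.18 against 2.40 in the contralesional one. Only 4 of 262 ipsilesional and 4 of 413 contralesional genes with a known length were lower on that scale. On the log2 scale its absolute difference between the groups was exceeded by 27 ipsilesional and 10 contralesional genes, against table medians of 0.26 in each. Its pooled SD within groups was also large on that scale. It was 0.40 against a median of 0.13 in ipsilesional and 0.26 against 0.14 in contralesional cortex. Of the listed genes, 90.5% ipsilesional and 87.5% contralesional had a smaller SD.

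Among the genes that both tables list, Ptger4 was the one with opposite directions. Of the other 18, 6 were higher and 12 lower in recovered mice in both hemispheres, and none had opposite signs. The ipsilesional minus the contralesional log2 difference was 1.21 for Ptger4, with a standard error of 0.30. For the 18 others the absolute gap between hemispheres was 0.021 to 0.19, with a median of 0.076; the widest was that of Pde10a, a phosphodiesterase that breaks down cAMP and cGMP. Because a gene enters both tables through the authors' selection in each, and Ptger4 was chosen for its gap, this is a description of the shared genes and not a test.

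The shared gene nearest to Ptger4 in its ipsilesional difference was Ide, which encodes the insulin-degrading enzyme, with log2 differences of 0.42 ± 0.13 and 0.32 ± 0.11 (SE) in ipsilesional and contralesional cortex. At the other end Npas4, a transcription factor induced by neuronal activity, had -0.97 ± 0.44 and -1.06 ± 0.44. Both genes kept their direction in the 2 tables.

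**Figure D2:**
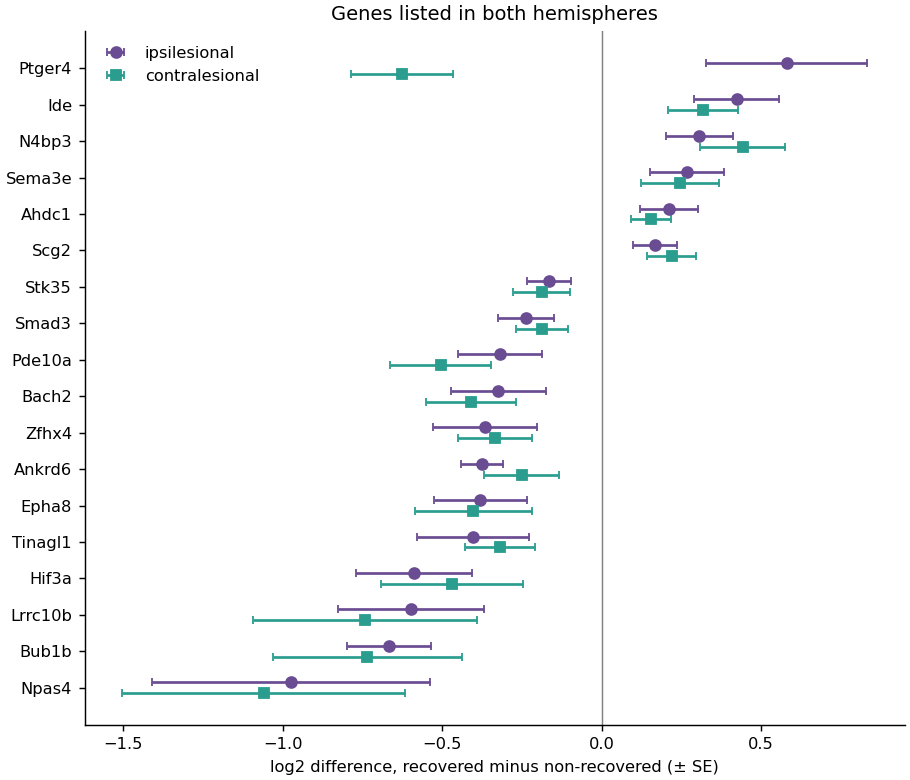
Log2 difference of recovered minus non-recovered mice (horizontal axis) for 18 of the 19 genes listed in both tables, with circles for ipsilesional and squares for contralesional cortex and bars for the standard error. Ptger4, at the top, has its symbols on opposite sides of 0, at 0.58 and -0.63, while the symbols of each other gene lie on one side.

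The shift between hemispheres could also be followed in single animals, as the ipsilesional minus the contralesional deviation of Ptger4 from its table mean. It was 0.78, 0.53 and 0.96 in recovered animals 6, 23 and 28. In non-recovered animals 17, 19, 20, 21 and 29 it was -0.95, -0.45, -0.60, -0.36 and 0.10. By title number all recovered animals lay above all non-recovered ones. These are the same values for which the gene was chosen, so this is no further evidence. With libraries joined by description code instead, the ipsilesional libraries of animals 6 and 23 gave 1.44 and -0.14, and the second of these fell within the range of the non-recovered animals. The difference between hemispheres is 1.21 under either pairing, with a standard error of 0.24 by number and 0.41 by code.

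Genes with the most similar ipsilesional profile were sought by the root mean square distance between log2 CPM profiles over the 8 libraries, each gene centred on its own mean. A gene that does not vary at all lies 0.44 from Ptger4, and 96 of 262 genes were nearer than that. The nearest of 262 genes were AW112010, an RNA induced in immune cells, at 0.21, and Plau, the urokinase-type plasminogen activator, at 0.24. Among the 5 nearest were also Casp1, the inflammatory caspase, at 0.28, and Pidd1, a death domain protein induced by p53, at 0.29. AW112010 had 1.50, 0.17 and 0.52 log2 CPM in recovered animals 6, 23 and 28, and -0.38, -0.04, 0.01, 0.52 and 0.26 in non-recovered animals 17, 19, 20, 21 and 29. It shared with Ptger4 its highest library, animal 6, and its lowest, animal 17. When each group was centred on its own mean, so that the difference between groups played no part, the nearest were Lyve1, a hyaluronan receptor of border macrophages and lymphatic vessels, at 0.17, AW112010 at 0.21 and Plau at 0.23. A flat gene lies at 0.34 on this measure, and 69 of the 262 genes were nearer than it. Lyve1 thus varied with Ptger4 among animals of a group, yet its difference between groups was -0.95 ± 0.22 (SE), opposite in sign to that of Ptger4.

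In contralesional cortex the nearest of 416 genes were BC028528 at 0.17, Myt1, a zinc finger transcription factor of the neural lineage, at 0.18, and Glcci1, a glucocorticoid-induced gene, at 0.19, where a flat gene lies at 0.38 and 249 of the 416 genes were nearer than it. Cox16, a cytochrome c oxidase assembly factor, was also at 0.19, and Pstpip2, a membrane-bending protein of myeloid cells, at 0.20. Myt1 had 2.32, 1.91 and 2.01 log2 CPM in recovered animals 6, 23 and 28, and 2.52, 2.58, 2.51, 2.35 and 2.26 in non-recovered animals 17, 19, 20, 21 and 29. As with Ptger4, recovered animal 6 was above the other recovered animals and also above non-recovered animal 29. With each group centred on its own mean, Myt1 and Pstpip2 were the nearest, each at 0.13, followed by the growth factor gene Igf1 at 0.14. A flat gene lies at 0.22 on this measure, and 128 of the 416 genes were nearer than it. Within groups contralesional Ptger4 varied about as much as counting alone gives (0.93 times), so this ranking does not show that these genes vary with it. Over both tables together (16 libraries), 1 of the 18 other shared genes was nearer than a flat gene, which lies at 0.411: the DNA-binding protein gene Ahdc1, at 0.409. Next came the kinase gene Stk35 at 0.432 and Smad3, the transducer of TGF-beta signals, at 0.433.

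**Figure D3:**
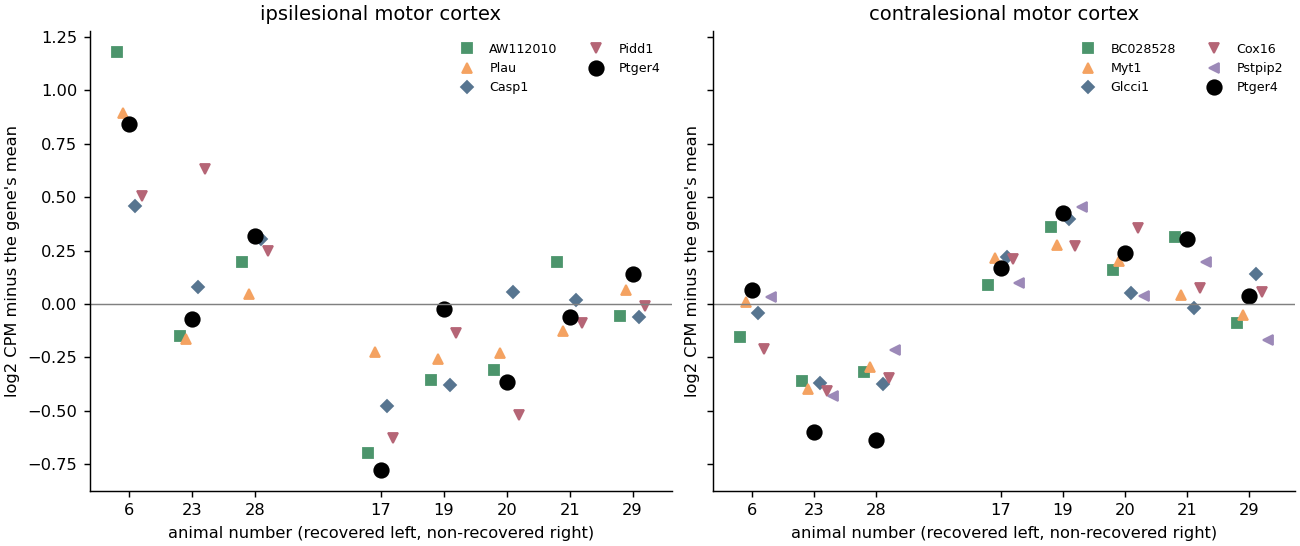
Log2 CPM minus each gene's own mean (vertical axis) in each library, for Ptger4 (black circles) and genes with the smallest root mean square distance to it, 4 of the 5 nearest in ipsilesional and all 5 in contralesional cortex; recovered animals are left and non-recovered ones right. In ipsilesional cortex Ptger4, AW112010 and Plau are highest in animal 6, and in contralesional cortex Ptger4 is lowest in animals 23 and 28.

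Gpnmb, C3 and Itgam, listed markers of microglia and macrophages, were also highest in the library in which ipsilesional Ptger4 was highest. Markers that are not listed were not analysed, so this does not describe the genes of these cells as a class. Of 16 markers of these cells, 4 are in the ipsilesional table, and their summed level was 148, 10.7 and 9.33 CPM in recovered animals 6, 23 and 28, against 9.05 to 22.0 CPM in the 5 non-recovered animals. In animal 6 of the recovered group Gpnmb, a glycoprotein of phagocytes, had 2151 reads against 40 to 222 in the 7 other libraries. There the complement gene C3 had 824 reads against 1 to 90, and the integrin gene Itgam 524 against 100 to 195. Lyve1 did not follow, with 17 reads in animal 6 and 11 to 46 in the others. None of the 4 markers passed an adjusted p of 0.05 between the groups (limma, Benjamini-Hochberg, adjusted p = 0.0532 for Lyve1, 0.191 for Itgam, 0.291 for Gpnmb and 0.835 for C3; at an unadjusted p under 0.05 only Lyve1, and 0 adjusted with voom). Of all 263 listed ipsilesional genes, 1.14% passed the adjusted and 74.5% the unadjusted threshold. After quantile normalization Lyve1 passed, with a log2 difference of -1.05 and an adjusted limma p of 0.0269. Without animal 6 the log2 differences of Gpnmb, C3 and Itgam turned to -0.39, -1.86 and -0.0067, against 1.32, 0.34 and 0.59 with it.

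Without recovered animal 6 the ipsilesional log2 difference of Ptger4 was 0.34, with a standard error of 0.25, against 0.58 with it. Recovered animals 23 and 28, with marker sums inside the range of the non-recovered mice, had 0.59 and 0.98 log2 CPM of Ptger4. Non-recovered animal 21 had the second highest marker sum, 22.0 CPM, and 0.60 log2 CPM of Ptger4, near the middle of its group. In bulk tissue more cells of a type and more RNA per cell cannot be told apart, and the part of these cells in the Ptger4 difference was not tested. None of the 16 markers is in the contralesional table. That table does hold other genes of myeloid cells, of which Irf8, a transcription factor, and Itgb2, an integrin subunit, were named after their values were seen. Irf8 had a log2 difference of -0.35 ± 0.13 and Itgb2 one of 0.28 ± 0.13 (SE), and neither passed (limma adjusted p = 0.0590 and 0.0732).

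**Figure D4:**
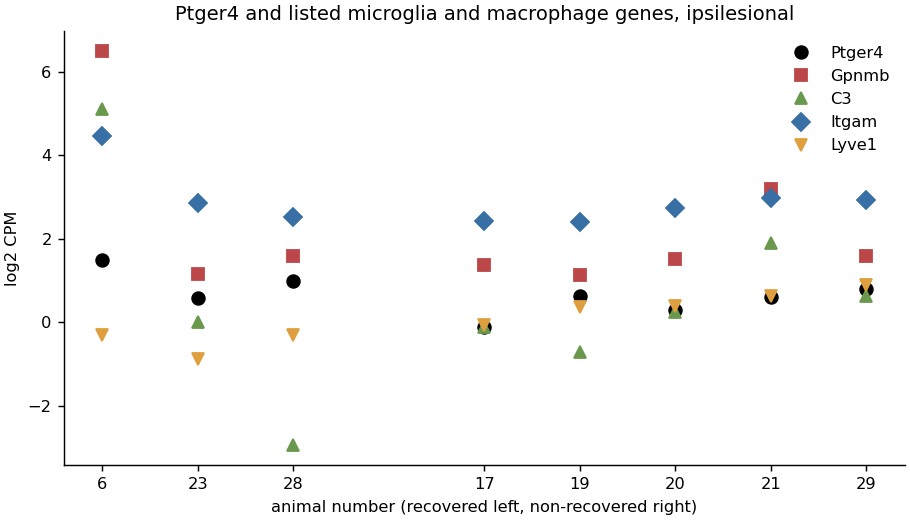
Log2 CPM (vertical axis) of Ptger4 and of the 4 listed microglia and macrophage markers in each ipsilesional library, with recovered animals left and non-recovered ones right. Gpnmb, C3, Itgam and Ptger4 are all highest in recovered animal 6, whereas Lyve1 is highest in non-recovered animal 29.

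Of the 11 listed ipsilesional markers of other cell types, 0 passed an adjusted limma p of 0.05 (8 at an unadjusted p under 0.05, 0 adjusted with voom). Among all listed ipsilesional genes 1.14% passed the adjusted and 74.5% the unadjusted threshold. Of the 15 listed contralesional markers of these types 3 passed, Cfap65, Mgp and the receptor gene Gpr6, where 7.91% of all listed genes did. At an unadjusted p under 0.05 there were 8, against 73.4% of all listed genes. By direction, 131 of all 263 ipsilesional genes had higher and 132 lower means in recovered mice. Of all 417 contralesional genes, 147 had higher and 270 lower means. In ipsilesional cortex 4 of 14 meningeal fibroblast markers are listed, all with lower means in recovered mice. They summed to 353 to 643 CPM in recovered against 419 to 875 CPM in non-recovered mice. In contralesional cortex 3 of 14 are listed, also with lower means, with sums of 66.0 to 90.7 CPM in recovered against 88.1 to 104 CPM in non-recovered mice. Of these Mgp, the matrix Gla protein gene, passed with a lower mean in recovered mice (log2 difference -0.40 ± 0.09 (SE), limma adjusted p = 0.0469). All 10 listed of 16 striatal projection neuron markers had lower means in recovered mice in contralesional cortex, with sums of 210 to 232 CPM in recovered and 254 to 307 CPM in non-recovered libraries, which did not overlap; 1 of the 10, Gpr6, passed. The listed inhibitory neuron markers had higher means in recovered mice, with sums of 440 to 503 CPM in recovered against 376 to 445 CPM in non-recovered mice for 2 of 10 in ipsilesional cortex, and 114 to 132 against 108 to 118 CPM for 1 of 10 in contralesional cortex. Ipsilesional means in recovered mice were lower for Bmp4, the 1 listed of 9 oligodendrocyte lineage markers, for Calb1, the 1 listed of 12 excitatory neuron markers, and for 2 of the 3 listed striatal markers. The third, Scn4b, a sodium channel subunit gene, had a higher mean, and the 3 summed to 182 to 235 CPM in recovered against 170 to 212 CPM in non-recovered mice. Cfap65, a gene of motile cilia, is the 1 listed of 8 choroid plexus and ependyma markers. It had a higher mean in recovered mice in contralesional cortex (log2 difference 0.49 ± 0.11 (SE), limma adjusted p = 0.0469). With voom, and without animal 17, no listed contralesional gene passed an adjusted p of 0.05. Neither table holds any of the 9 endothelial, 9 mural, 8 astrocyte or 12 leukocyte markers looked up, and other genes of these cells were not searched for. The part of these cell types in the Ptger4 differences was not tested.

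Of the prostaglandin pathway around EP4, 28 genes of synthesis, transport and breakdown and 13 other prostanoid and leukotriene receptors were looked up. No other receptor is listed, so Ptger4 is the sole prostanoid receptor in both tables, and neither cyclooxygenase gene nor a prostaglandin E synthase gene is among the listed genes. Levels of genes that are not listed were not analysed here. The ipsilesional table holds Ptgds, the prostaglandin D2 synthase of meninges and choroid plexus. Ptgds had 9.01, 8.40 and 9.27 log2 CPM in recovered animals 6, 23 and 28, and 9.70, 8.65, 9.71, 9.71 and 9.62 in non-recovered animals 17, 19, 20, 21 and 29. Its recovered libraries lay below all non-recovered ones but animal 19 (log2 difference -0.58 ± 0.29 (SE), limma adjusted p = 0.0879).

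The contralesional table holds 2 other enzymes that use the same precursor, prostaglandin H2. Ptgis, the prostacyclin synthase of vessels, had 0.62, 0.58 and -0.12 log2 CPM in recovered animals 6, 23 and 28, and 1.04, 0.75, 1.16, 0.38 and 1.11 in non-recovered animals 17, 19, 20, 21 and 29 (log2 difference -0.53 ± 0.22 (SE), limma adjusted p = 0.0618). Tbxas1, the thromboxane synthase, a gene of platelets and myeloid cells, had 0.66, 1.37 and 1.27 in recovered animals 6, 23 and 28, and 0.91, 0.36, 0.67, 0.95 and 0.40 in non-recovered animals 17, 19, 20, 21 and 29 (0.44 ± 0.19, adjusted p = 0.0662). Both had overlapping groups and neither passed an adjusted p of 0.05. Ptgis was lower and Tbxas1 higher in recovered mice, the first with the sign of contralesional Ptger4 and the second against it.

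Among genes of cAMP signalling, 43 downstream genes and 30 other receptors that couple to the stimulatory G protein were looked up. Of those named below, Pde10a, Gpr6 and Adora2a are also among the striatal projection neuron markers above, so their lower means are not a separate observation. Pde10a was lower in recovered mice in both tables but did not pass, with log2 differences of -0.32 ± 0.13 in ipsilesional and -0.50 ± 0.16 in contralesional cortex (SE, limma adjusted p = 0.0662 and 0.0520). In contralesional cortex Pde7b, another cAMP phosphodiesterase, had -0.35 ± 0.14 and Creb3l1, a membrane-bound transcription factor related to CREB, had 0.42 ± 0.13 (adjusted p = 0.0590 and 0.0535). No receptor of this list is in the ipsilesional table, and 4 are in the contralesional one.

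Of these 4, Gpr6, an orphan receptor of striatal neurons that raises cAMP, had a lower mean in recovered mice. It had -0.39, -0.28 and -0.31 log2 CPM in recovered animals 6, 23 and 28, and 0.57, 0.68, 0.28, 0.58 and -0.18 in non-recovered animals 17, 19, 20, 21 and 29, without overlap (log2 difference -0.71 ± 0.18 (SE), limma adjusted p = 0.0469). Of the 417 listed genes, 7.91% had an adjusted and 73.4% an unadjusted limma p under 0.05. How many of them separate the groups without overlap was not counted. The call was lost without any 1 of animals 6, 17, 19, 20, 21, 23 and 28 (limma adjusted p = 0.0548 to 0.0768), with voom (0.0520) and after quantile normalization (0.105), and it held without animal 29 (0.00960). Like Ptger4 it rests on few reads, 13 to 39 per library. The adenosine receptor gene Adora2a (-0.73 ± 0.32, adjusted p = 0.0678) had a lower mean and the dopamine receptor gene Drd5 (0.41 ± 0.17, adjusted p = 0.0628) a higher one, and neither passed. Of 17 genes for desensitisation and partners of EP4, such as the arrestins and receptor kinases, none is listed.

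Activity-dependent genes, many of them CREB targets, and inflammatory genes completed the lists. Npas4 did not pass in either table (limma adjusted p = 0.0688 ipsilesional and 0.0621 contralesional). Scg2, a neuropeptide precursor, had 0.17 ± 0.07 and 0.22 ± 0.08 (SE, adjusted p = 0.0660 and 0.0576), and Btg2, an antiproliferative early gene listed in contralesional cortex only, had -0.53 ± 0.27 (adjusted p = 0.0852). Casp1, which processes interleukin 1, is listed in ipsilesional cortex, with 1.31, 0.94 and 1.16 log2 CPM in recovered animals 6, 23 and 28 and 0.38, 0.48, 0.91, 0.88 and 0.80 in non-recovered animals 17, 19, 20, 21 and 29 (0.45 ± 0.15, adjusted p = 0.0600). All recovered libraries lay above all non-recovered ones. Il1r1, the interleukin 1 receptor, is listed in contralesional cortex, with 1.69, 1.39 and 1.95 log2 CPM in recovered animals 6, 23 and 28 and 2.02, 2.05, 2.07, 1.99 and 2.05 in non-recovered animals 17, 19, 20, 21 and 29 (-0.36 ± 0.11, adjusted p = 0.0520). All recovered libraries were below all non-recovered ones. The share of all listed genes that separate the groups as Casp1 and Il1r1 do was not counted.

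The 7 lists together name 180 genes without Ptger4. Of these, 5 are listed in ipsilesional cortex, 2 with higher and 3 with lower means in recovered mice. All 263 listed genes were 131 higher and 132 lower. None of the 5 passed an adjusted limma p of 0.05, which 1.14% of the 263 listed genes did. At an unadjusted p under 0.05 there were 3 (2 higher, 1 lower), against 74.5% of the listed genes, and with voom 4 unadjusted and 0 adjusted. In contralesional cortex 13 list members are listed, 4 higher and 9 lower, where all 417 listed genes were 147 higher and 270 lower. Of the 13, 1 (Gpr6) passed the adjusted p, against 7.91% of the 417 listed genes. At an unadjusted p under 0.05 there were 12 (4 higher, 8 lower), against 73.4% of the listed genes. The table's 33 passing genes were 8 higher and 25 lower. After quantile normalization they were 70 higher and 7 lower of 77. With the trend on exonic length removed they were 71 higher and 28 lower of 99. The balance of directions thus differed between settings. These 2 alternatives were fitted to the listed genes alone, so they do not show which balance is right. The contralesional Ptger4 difference kept its sign under both, at -0.36 and -0.48.

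**Figure D5:**
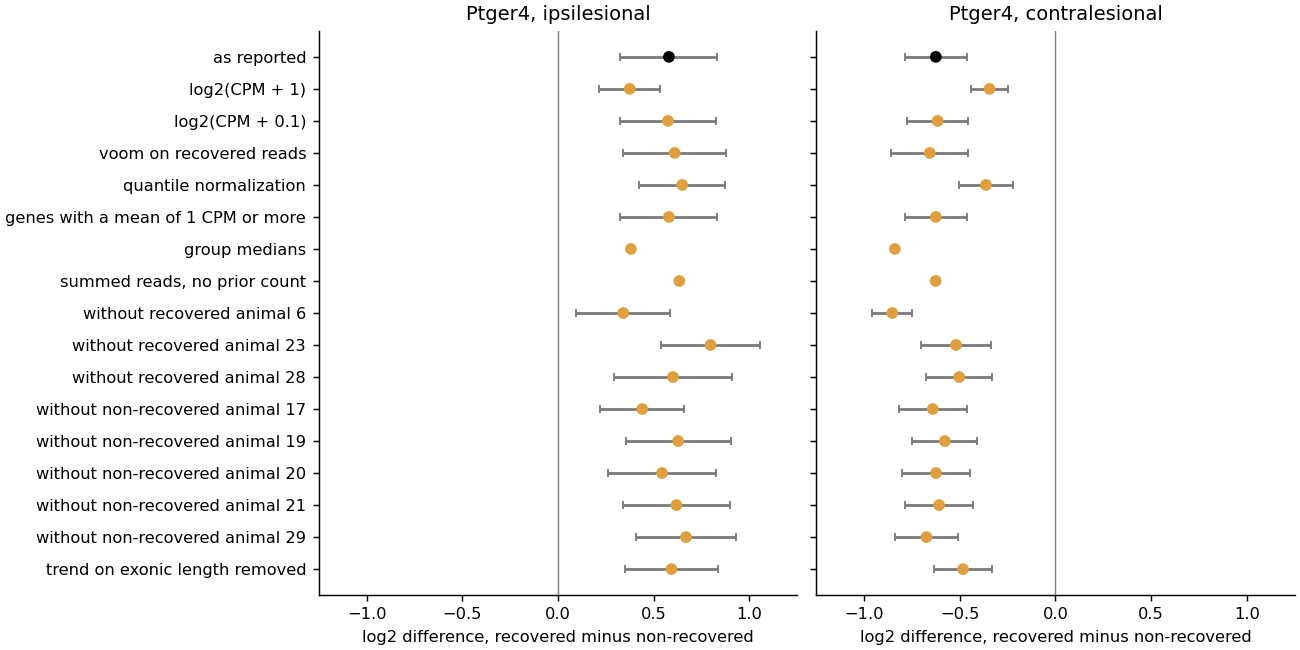
Log2 difference of Ptger4, recovered minus non-recovered (horizontal axis), as reported (black) and under each other setting or with 1 library left out (orange), with bars for the standard error where the fit gives one. The ipsilesional values run from 0.34 to 0.80 and the contralesional ones from -0.85 to -0.34, all on the side of 0 on which the reported value lies.

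How large each difference was depended on the scale and on single libraries. In ipsilesional cortex it was 0.38 on log2(CPM + 1) and 0.38 between group medians, against 0.58 as reported. In contralesional cortex it was -0.34 on log2(CPM + 1), against -0.63 as reported, because adding 1 CPM to a gene near 1 CPM shrinks its differences. From summed reads with no prior count the differences were 0.63 and -0.63.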

How the data were processed

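RNA was extracted from both primary motor cortices with Trizol and an RNeasy kit and made into stranded TruSeq mRNA libraries, per the labels' protocols. STAR 2.5.1b, Trimmomatic 0.38, bcl2fastq, edgeR and mm10 are named in the submitters' processing notes without their roles. The sources used here do not give the read counter, the annotation or the gene selection. The authors deposited 1 table per hemisphere with log2 CPM of selected genes. Taking out a prior count of 2 and the library scale left 100% of these values within 0.01 of a whole read; totals may include a normalization factor. The tables were scaled separately, so no level was compared between them.

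In each table limma 3.58.1 (R 4.3.3) compared the groups over all listed genes, with no filter, Benjamini-Hochberg adjustment over the table and 2-sided p. The design had foreseen this for log2 values. The fit was also run on simulated reads without the authors' selection of genes, which does not check the calls made here. Adjustment covers selected genes only, of which 74.5% ipsilesional and 73.4% contralesional had an unadjusted limma p under 0.05. Were they selected on this contrast, p is too small and a call is no independent evidence for it. Animal, and so pairing of hemispheres, comes from the titles; deviations from group means over the 18 other shared genes correlated by 0.52 on average for the same number, 0.54 for the same code and -0.09 for other pairs. Exonic lengths came from GENCODE M21 for 262 of 263 and 413 of 417 genes. Members and lists were chosen with earlier results of these data known. Named genes were Ptger4, its nearest profiles (5 per table, 3 within groups, 3 over both tables), shared genes of opposite sign and all listed members of 7 lists; Ide and other shared genes, Irf8 and Itgb2 were named after their values were seen. Of the genes these rules name, 2 are not reported here. Alternatives were log2(CPM + 1), log2(CPM + 0.1), voom, quantile normalization, a filter at 1 CPM, group medians, summed reads and leaving out each library; removal of a trend on exonic length was added after seeing the data.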

Additional observations from a re-analysis of the deposited data

Results flagged for a closer look

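Among 41 groups of 5 non-recovered libraries, 2 held a library far from the others, where chance gives about 1 in 20. Gpnmb in ipsilesional cortex reached 3.19 log2 CPM in non-recovered animal 21, against 1.12 to 1.59 in the other non-recovered animals. Ptgds in ipsilesional cortex was 8.65 log2 CPM in non-recovered animal 19, against 9.62 to 9.71 in the others. Ptger4 itself had no such library among the non-recovered animals in either hemisphere. Recovered libraries were not examined in this way.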

How the results depend on the processing

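The Ptger4 difference kept its sign under every alternative run in both tables. Leaving out 1 library gave 0.34 to 0.80 in ipsilesional and -0.85 to -0.50 in contralesional cortex, and 1.08 to 1.34 for the gap between hemispheres. On log2(CPM + 1) the contralesional difference was -0.34 and the gap 0.72, and after quantile normalization the contralesional difference was -0.36. With a replicate block by animal the gap stayed 1.21, with a standard error of 0.24 in place of 0.30 (0.41 paired by description code); recovered and non-recovered mice share no animal, so no other result could be paired.

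The count of genes past the adjusted p, 3 ipsilesional and 33 contralesional, became 1 and 3 on log2(CPM + 1), 0 and 0 with voom (222 and 356 at an unadjusted p under 0.05), 39 and 77 after quantile normalization, and 1 and 99 with the length trend removed. Leaving out 1 library changed the counts to 6 ipsilesional and 58 contralesional calls when it was animal 6, to 0 and 16 for animal 23, 18 and 6 for animal 28, 0 and 0 for animal 17, 13 and 3 for animal 19, 1 and 1 for animal 20, 0 and 10 for animal 21, and 7 and 74 for animal 29. List members past it, 0 and 1, became 0 contralesional on log2(CPM + 1) and with voom, 1 (Casp1) and 2 (Creb3l1 and Drd5) after quantile normalization, and 2 contralesional with the length trend removed; leaving out 1 library gave 0 to 0 and 0 to 4 (4 without animal 29). The differences of Gpnmb, C3 and Itgam were -0.39, -1.86 and -0.0067 without recovered animal 6, and reached 2.29 without animal 23 for Gpnmb, and 2.17 for C3 and 0.97 for Itgam without animal 28. Quantile normalization moved the median difference of the listed genes from -0.13 to -0.01 ipsilesional and from -0.19 to -0.11 contralesional. The causes were not tested. At 13 to 65 Ptger4 reads per library, counting error limits what single libraries show.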
